A study of Mus musculus with 5 samples.

Results

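Mouse embryonic stem (ES) cells of the line R1 were sorted singly, and 106 cells in which Nanog was read were compared with 48 cells in which it was not. The cells came from 2 plates of 96 wells, ES replicates 1 and 3, and were chosen by their reads. A well was kept when at least 10000 of its reads lay on genes, repeats and mitochondrial genes aside, and it was classed by whether 1 or more reads lay on Nanog. Of the 192 wells 154 were kept, 53 with and 31 without Nanog reads in replicate 1 and 53 with and 17 without in replicate 3. The wells left out numbered 12 in replicate 1, of which 5 had Nanog reads and 7 had none, and 26 in replicate 3, of which 10 had Nanog reads and 16 had none. The whole series holds 480 wells on 5 plates, 3 of ES R1 cells, 1 of Neuro2A neuroblastoma cells and 1 of mouse embryonic fibroblasts (MEF). Both classes come from the same plates, whose wells were pooled before amplification, and no label separates them. The labels describe the cells as spheres derived from ES cells, sorted 1 to a well, and name no treatment.

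Nanog is a homeodomain transcription factor that, with Oct4 (encoded by Pou5f1) and Sox2, sits at the centre of the gene network that keeps ES cells pluripotent. Its level is known to vary between ES cells of 1 culture, and cells low in Nanog are described as more prone to differentiate while still able to regain it. Naive pluripotency genes such as Klf4, Esrrb, Zfp42 and Tbx3 are known in the same setting for cell-to-cell variation, whereas Pou5f1 is known for a more even level.

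Nanog reads chose the classes, so their values are a description. Among the cells with Nanog reads, replicate 1 had a lowest, median and highest of 1, 35 and 2078 Nanog reads, which is 10.3, 413 and 10124 CPM, the reads scaled to a fixed total of gene reads per cell. Replicate 3 had 1, 10 and 156 Nanog reads, or 57.1, 397 and 3652 CPM. The median level was thus close in the plates at unequal depth. At the threshold itself, 2 cells in each plate had exactly 1 Nanog read. They had 491 and 706 genes with a read in replicate 1 and 1593 and 1810 in replicate 3, counted among 10000 reads of each cell, beside medians of 682 and 1603 in the cells with 0. Cells with 1 to 9 Nanog reads numbered 9 in replicate 1 and 24 in replicate 3, and cells with 10 or more numbered 44 and 29. The share of kept cells with Nanog reads was 63.1% in replicate 1 (exact 95% binomial interval 51.9 to 73.4%) and 75.7% in replicate 3 (64.0 to 85.2%), intervals that cover counting error only. Nanog had 0 reads in 63 Neuro2A cells and in 53 MEFs kept by the same minimum, at median depths of 38871 and 37585 gene reads, which allows shares of up to 4.76% and 5.66%. These limits are 3 counts over the number of cells, not exact intervals. A cell without Nanog reads is a cell in which Nanog was not detected at its depth.

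The classes differed in depth and in what was read at equal depth, and these values go beside every result that follows. Median gene reads were 116433 in cells with and 91706 in cells without Nanog reads in replicate 1, and 27048 with and 17495 without in replicate 3. Each cell was therefore thinned to 10000 gene reads drawn at random, and Nanog was then left out. After thinning, the number of genes read per cell had a lowest, median and highest of 488, 1328 and 3157 in cells with Nanog reads and of 160, 682 and 1341 in cells without, in replicate 1. In replicate 3 it was 1208, 2184 and 3401 with Nanog reads and 1147, 1603 and 1891 without. The ranges overlapped in both plates, and the cells with the most genes all had Nanog reads. The 10 most abundant genes of a cell took a median of 8.84% of its reads with and 14.9% without Nanog reads in replicate 1, and 6.25% with and 7.39% without in replicate 3. Reads on mitochondrial genes were a median of 8.57% with and 11.1% without Nanog reads in replicate 1, and 8.68% with and 10.997% without in replicate 3. Reads on repeats were 28.1% with and 23.3% without in replicate 1 and 34.9% with and 28.8% without in replicate 3. These medians cover wells of all barcodes. In replicate 3 every kept well whose barcode ended in guanine had Nanog reads. Each of those wells had 43.9% or more of its reads on repeats and 7.24% or less on mitochondrial genes. Medians of these shares without those wells were not taken. Cells with 10 or more Nanog reads had medians of 1582.5 and 2727 genes, and cells with 1 to 9 had 958 and 2057. When the class was taken from Nanog reads among the 10000 thinned reads, 8 and 2 cells changed class, and the median number of genes was 1524 with and 683 without Nanog reads in replicate 1 and 2193 with and 1648 without in replicate 3.

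**Figure D1:**
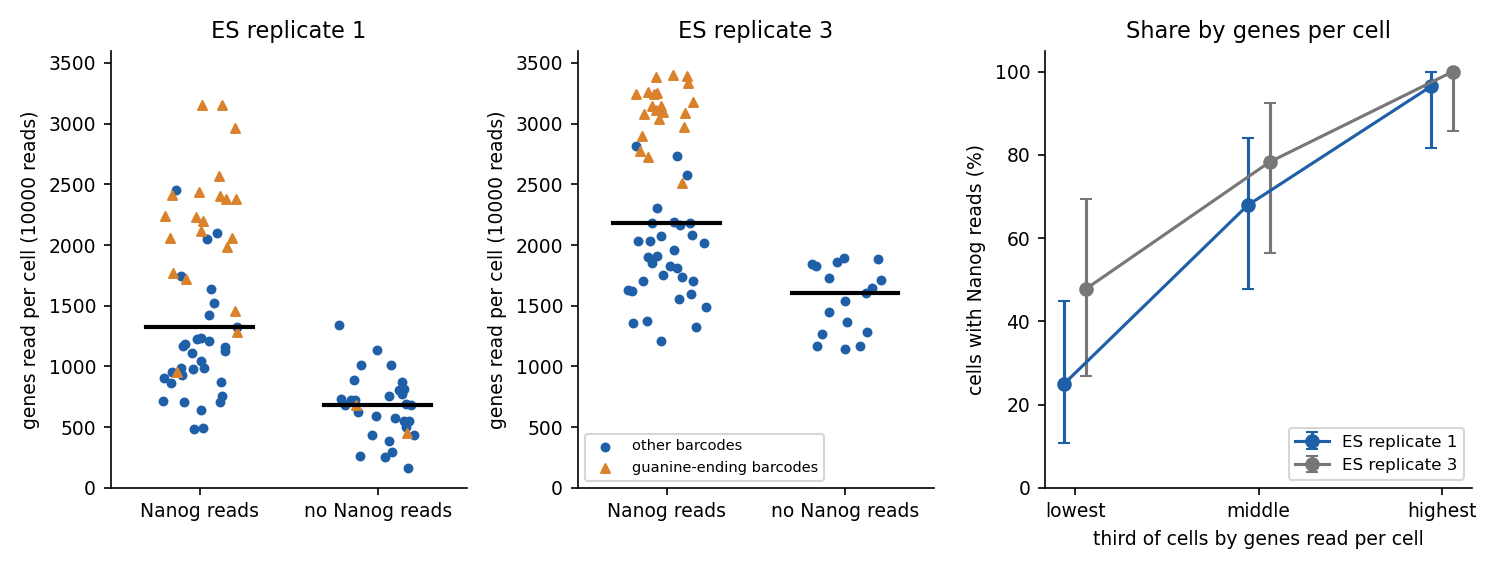
Genes read per cell among 10000 reads, for cells with Nanog reads (left) and without (right) in each plate, 1 point per cell and a line at the median; triangles are wells whose barcode ends in guanine. The right panel gives the share of cells with Nanog reads, with exact 95% binomial intervals, in the lowest, middle and highest tertile of cells by genes read, which ran 25.0, 67.9 and 96.4% in replicate 1 and 47.8, 78.3 and 100% in replicate 3.

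Ordered by genes read per cell and split into tertiles within a plate, 25.0% (7 of 28), 67.9% (19 of 28) and 96.4% (27 of 28) of cells had Nanog reads in replicate 1, from the lowest tertile to the highest. The same shares were 47.8% (11 of 23), 78.3% (18 of 23) and 100% (24 of 24) in replicate 3. Nanog detection thus followed the number of other genes read in both plates, over wells of all barcodes. In replicate 3 every kept well whose barcode ended in guanine had 2514 or more genes, which placed it in the highest tertile. Without such wells the median number of genes was 1078.5 with and 680 without Nanog reads in replicate 1. In replicate 3 it was then 1888.5 with and 1580 without. The genes were counted among 10000 reads of every cell, but Nanog was scored at each cell's deposited depth, which was not equal.

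The classes also differed in their well barcodes. Each well held its own template-switching helper oligo, which carries a 5-base barcode before 3 riboguanines, and the classes differed in its last base in both plates. The oligos below are built from the common sequence in the labels' protocol and the barcodes of the deposited columns; capitals mark the barcode, and the 3 bases after it are the riboguanines. They are shown for the guanine-ending wells with the most genes, for both guanine-ending wells without Nanog reads, and for the wells with most gene reads without Nanog reads.
Replicate 1, guanine-ending, most genes: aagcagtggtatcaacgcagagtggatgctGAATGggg
Replicate 3, guanine-ending, most genes: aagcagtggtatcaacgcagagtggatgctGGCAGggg
Replicate 1, guanine-ending, no Nanog reads: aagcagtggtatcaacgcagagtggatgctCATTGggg
Replicate 1, guanine-ending, no Nanog reads: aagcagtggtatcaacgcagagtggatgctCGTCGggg
Replicate 1, most gene reads without Nanog reads: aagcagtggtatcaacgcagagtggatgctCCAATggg
Replicate 3, most gene reads without Nanog reads: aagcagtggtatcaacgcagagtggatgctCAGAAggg
The well with barcode GAATG had 3157 genes and 334 Nanog reads, and that with GGCAG had 3401 genes and 41 Nanog reads. The wells CATTG and CGTCG had 453 and 681 genes at depths of 10338 and 23406 gene reads. The deepest wells without Nanog reads, CCAAT and CAGAA, had 300384 and 32184 gene reads and 1341 and 1886 genes.

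Guanine-ending barcodes made up 21 of 53 cells with and 2 of 31 cells without Nanog reads in replicate 1 (39.6% and 6.45%). In replicate 3 they were 21 of 53 with and 0 of 17 without (39.6% and 0%, the latter with an exact 95% binomial interval up to 19.5%). Put the other way, Nanog was read in 21 of 23 guanine-ending wells (91.3%) and 32 of 61 other wells (52.5%) in replicate 1, and in 21 of 21 (100%) and 32 of 49 (65.3%) in replicate 3. All 96 barcodes occur in both plates, and 62 were kept in both. Of these 62, 31 had Nanog reads in both plates, 7 in replicate 1 only, 16 in replicate 3 only and 8 in neither. From the 2 plates' shares 28.8 would have Nanog reads in both. Counts over all genes and over the pluripotency lists, and the genes past the edgeR test, are also given below without the guanine-ending wells.

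Every kept cell had reads on ES markers other than Nanog, and in replicate 3 many also had reads on fibroblast markers. The 9 other ES markers all had reads in both classes of both plates. Their summed level was 9825 CPM in cells with and 6610 CPM in cells without Nanog reads in replicate 1, and 9806 CPM with and 5841 without in replicate 3. A median cell had reads on 6 of these markers with and 3 without Nanog reads in replicate 1, and on 8 with and 5 without in replicate 3. Fibroblast markers differed between the plates: of 12, 4 had reads in cells with and 3 in cells without Nanog reads in replicate 1. The collagens Col1a1, Col1a2 and Col3a1 were at 0 there. In replicate 3, 11 had reads with and 12 without Nanog reads. Their summed level was 7347 CPM with and 13324 CPM without Nanog reads, against 2219 CPM with and 1248 without in replicate 1. Reads on the fibroblast markers outnumbered those on the ES markers in 14 of 53 cells with and 9 of 17 without Nanog reads in replicate 3, and in 5 of 53 with and 1 of 31 without in replicate 1. Against the label of ES cells, the class without Nanog reads in replicate 3 thus held more fibroblast than ES marker reads in sum. Calls of named genes that ended after a correction for this are therefore stated below, some with their value. In it a fixed share of the MEF plate's reads at the same barcode, 11.4%, was taken away. That share is the median over 282 genes at 100 CPM or more in the MEF plate and at least 10 times above replicate 1 and Neuro2A, and taking it away removed 10.9% of gene reads and left 50 cells with and 15 without Nanog reads. Fibroblast markers still outnumbered ES markers in 3 of these 50 and 2 of these 15 cells. In the cells without Nanog reads of replicate 3, fibroblast markers then summed to 2333 CPM, a sum the step lowers by design. ES markers there summed to 7720 CPM. The ES marker ratio of the classes in replicate 3 was 1.42 after this step and 1.68 before it. Neuro2A markers summed to 119 CPM with and 61.3 without Nanog reads in replicate 1, and to 121 CPM with and 29.4 without in replicate 3. Primitive endoderm markers, those of the lineage that low-Nanog cells are known to be able to enter, summed to 75.5 CPM with and 87.1 without Nanog reads in replicate 1 and to 468 CPM with and 671 without in replicate 3. Gata6, Gata4, Sox17, Sox7 and Pdgfra, which define that lineage, were at 0 in both classes of replicate 1, and Sox17 and Sox7 in both classes of replicate 3. In replicate 3 Gata6 and Pdgfra had reads in both classes, and Gata4 in the cells with Nanog reads only. The primitive endoderm sums were taken before the MEF share was removed. In replicate 3 the class with the higher sum also had the higher fibroblast marker sum.

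Across all genes, most were read in a larger share of the cells with Nanog reads, and few passed a test for a difference in level. Counts were summed per plate and class, since cells of 1 plate are not replicates, and the 4 sums were fitted with edgeR's quasi-likelihood test with the plate as a block. Of 12876 genes with a read, 5913 were tested. In this test with Benjamini-Hochberg adjustment at 0.05, 3 genes were higher (0.0507% of genes tested) and 4 lower (0.0676%) in cells with Nanog reads; 121 (2.05%) and 82 (1.39%) had an unadjusted p under 0.05. The fit had 1 residual degree of freedom and a biological coefficient of variation of 88.1%. Without guanine-ending wells 0 genes passed the edgeR test as higher and 2 as lower, with 90 and 58 at an unadjusted p under 0.05.

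A second rule, with no test, asked for levels at least 2-fold apart the same way in both plates, on a scale of CPM + 10, and for the share of cells with a read to differ the same way in both. It found 577 genes higher (9.76%) and 45 lower (0.761%) in cells with Nanog reads. The share of cells with a read was higher with Nanog reads in both plates for 4102 genes (69.4%) and lower in both for 120 (2.03%), while the level was higher in both for 1788 (30.2%) and lower in both for 972 (16.4%). Across the 5913 genes the ratios of the 2 plates had a Spearman's rho of -0.0007, given as a description, since genes of a library are not independent.

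**Figure D2:**
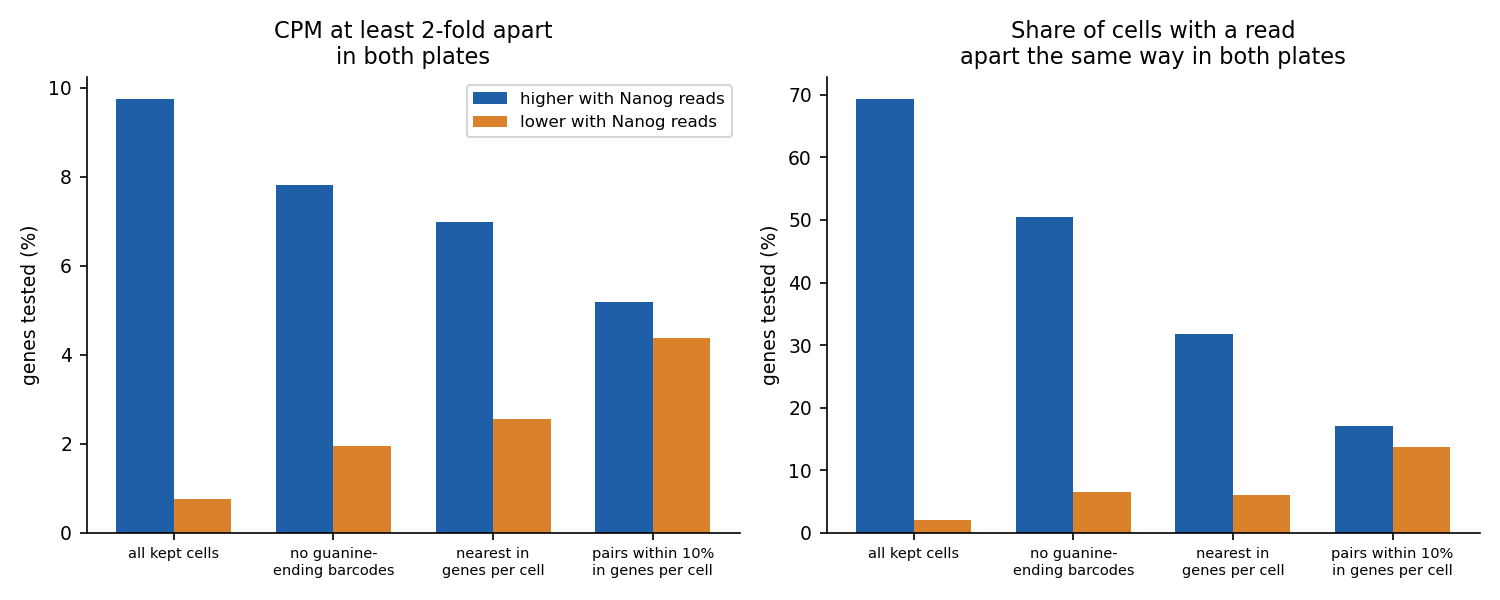
Percent of genes tested that were higher (blue) or lower (orange) in cells with Nanog reads in both plates, at least 2-fold in CPM + 10 (left) and in the share of cells with a read (right), over all kept cells and over 3 subsets of cells. Over all kept cells the 2-fold rule gave 9.76% higher and 0.761% lower, and in pairs of cells within 10% of each other in genes read it gave 5.19% higher and 4.37% lower.

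This excess of genes higher with Nanog reads was smaller in cells more alike in genes read. Without guanine-ending wells, leaving 32 cells with and 29 without Nanog reads in replicate 1 and 32 with and 17 without in replicate 3, the 2-fold rule gave 395 genes higher (7.81%) and 99 lower (1.96%) of 5059. The share of cells with a read was higher in both plates for 50.5% and lower in both for 6.58%. With each cell of the smaller class paired to the nearest cell of the other in genes read, it gave 308 higher (6.99%) and 113 lower (2.56%) of 4408, at medians of 988 genes with and 682 without Nanog reads in replicate 1 and 1632 with and 1603 without in replicate 3. The share of cells with a read was then higher in both plates for 31.8% and lower in both for 6.06%. The same pairing without guanine-ending wells gave 306 higher (7.08%) and 98 lower (2.27%) of 4321. With pairs held within 10% of each other, 15 pairs remained in each plate, at medians of 862 genes with and 806 without Nanog reads in replicate 1 and 1632 with and 1648 without in replicate 3. In these pairs 170 genes were higher (5.19%) and 143 lower (4.37%) of 3274. The share of cells with a read was higher in both plates for 555 genes (17.0%) and lower in both for 450 (13.7%), and the level was higher in both for 819 (25.0%) and lower in both for 691 (21.1%). Of the genes higher by the 2-fold rule, 94 were shared between all cells and the pairs, which is 16.3% of the 577 and 55.3% of the 170. Of those lower, 14 were shared, or 31.1% of the 45 and 9.79% of the 143. With the MEF share taken away from replicate 3, all cells gave 583 higher (10.3%) and 47 lower (0.828%) of 5673.

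The 3 genes higher past the edgeR test were Tuba1b, Pcdhg@ and Blm. Tuba1b, an alpha-tubulin of the microtubules, had a lowest, median and highest of 0, 5 and 173 reads of 10000 in cells with Nanog reads and of 0, 0 and 8 in cells without, in replicate 1. In replicate 3 it had 0, 6 and 67 with Nanog reads and 0, 2 and 11 without. The ranges overlapped, and in both plates the highest cells had Nanog reads. Summed, this was 1519 CPM with and 155 without Nanog reads in replicate 1 and 931 with and 241 without in replicate 3, a fitted log2 fold change of 2.63 with an adjusted p of 0.0113 from edgeR. In the pairs within 10% in genes read, its log2 ratio was 2.15 in replicate 1 and 0.57 in replicate 3. With the MEF share taken away from replicate 3 its edgeR adjusted p was 0.0553, and without guanine-ending wells its log2 fold change was 1.58 with an adjusted p of 1.0, neither past the threshold. Tuba1b has near-identical tubulin copies, and how reads were shared among them is not given in the sources used here, so its value is uncertain. Pcdhg@, the row of the gamma-protocadherin cluster of cell adhesion genes, had reads in 8 of 53 cells with and 0 of 31 without Nanog reads in replicate 1 and in 14 of 53 with and 1 of 17 without in replicate 3. Its level was 363 CPM with and 0 without in replicate 1 and 791 CPM with and 52.9 without in replicate 3 (edgeR adjusted p of 0.000455). A single cell held 78.1% of its reads in the cells with Nanog reads of replicate 1. Of MEFs, 45.3% had a read of it, and in the pairs its log2 ratio was 4.15 in replicate 1 and -2.81 in replicate 3. Blm, the DNA helicase mutated in Bloom syndrome, had reads in 8 of 53 cells with and 2 of 31 without Nanog reads in replicate 1 and in 25 of 53 with and 1 of 17 without in replicate 3. Its level was 497 CPM with and 19.4 without in replicate 1 and 345 CPM with and 5.88 without in replicate 3 (edgeR adjusted p of 0.0291). A single cell held 66.5% of its reads in the cells with Nanog reads of replicate 1. In the pairs its log2 ratio was -1.58 in replicate 1 and 4.50 in replicate 3. Without guanine-ending wells the edgeR adjusted p was 0.0794 for Pcdhg@ and 0.518 for Blm.

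Each of the 4 genes lower past the test had over 50% of the reads of the cells without Nanog reads in 1 cell, in at least 1 plate. Cdc42bpa, a kinase that acts on the cytoskeleton downstream of Cdc42, had 88.8 CPM in cells with and 3035 CPM in cells without Nanog reads in replicate 1 and 172 CPM with and 859 without in replicate 3 (log2 fold change of -3.69, edgeR adjusted p of 3.3e-07). A single cell held 99.7% of its reads among the 31 cells without Nanog reads in replicate 1, and reads were found in 20.8% of cells with and 6.45% of cells without. With the highest cell of each plate left out its log2 ratio was 2.16 in replicate 1 and -1.74 in replicate 3, and with the MEF share taken away that of replicate 3 was 1.33 and the edgeR adjusted p was 1.0. Sipa1, a Rap GTPase-activating protein, had 28.3 CPM with and 3048 without Nanog reads in replicate 1 and 20.8 with and 41.2 without in replicate 3 (log2 fold change of -4.13, edgeR adjusted p of 0.000427). In replicate 1, 1 of 31 cells without Nanog reads held all of the reads of that class. Without the highest cell of each plate its log2 ratio was 2.22 in replicate 1 and 1.78 in replicate 3. Dnm1l, the GTPase of mitochondrial fission, had 189 CPM with and 3587 without Nanog reads in replicate 1, read in 14 of 53 cells with and 5 of 31 without and with 51.8% of the reads of the cells without in 1 cell, and 281 CPM with and 441 without in replicate 3 (log2 fold change of -2.45, edgeR adjusted p of 0.0143). Lars2, the mitochondrial leucyl-tRNA synthetase, had 210 CPM with and 219 without Nanog reads in replicate 1 and 944 with and 9135 without in replicate 3 (log2 fold change of -1.69, edgeR adjusted p of 0.0358), where 1 cell held 65.7% of the reads in cells without. The call of Lars2 rested on replicate 3, and with the MEF share taken away its log2 fold change was -1.27 with an edgeR adjusted p of 1.0. Without guanine-ending wells Cdc42bpa and Sipa1 passed the test, while the edgeR adjusted p was 0.897 for Dnm1l and 0.737 for Lars2. For Cdc42bpa and Dnm1l in replicate 1, and for Sipa1 and Lars2 in both plates, the share of cells with a read was higher with Nanog reads although the level was lower.

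The core pluripotency factors and their partners were read in more of the cells with Nanog reads in both plates, with no gene past the edgeR test. Of 19 genes of the list with a read, 16 were tested, and for all 16 the share of cells with a read was higher with Nanog reads in both plates, beside 69.4% of all genes tested. Their level was higher in both plates for 9 and lower in both for 1, beside 30.2% and 16.4% of all genes, and 4 met the 2-fold rule upward and 0 downward, beside 9.76% and 0.761%. At an unadjusted edgeR p under 0.05, 1 was higher and 0 lower. Their median log2 ratio was 0.30 in replicate 1 and 1.04 in replicate 3, beside 0.28 and 0.07 over all genes tested. A gene could enter the test through the class in which it was high, so the counts describe the tested members only. The share of cells with a read was also higher in both plates for 25 of 26 S phase genes. It was so for 36 of 38 oxidative phosphorylation, 25 of 32 mitosis and 60 of 78 ribosomal protein genes, so it was not particular to the core list.

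Sall4, a zinc finger factor bound to the Nanog protein in ES cells, had a lowest, median and highest of 0, 4 and 533 reads of 10000 in cells with and 0, 0 and 70 in cells without Nanog reads in replicate 1. In replicate 3 it had 0, 8 and 53 with Nanog reads and 0, 0 and 53 without. Most cells without Nanog reads had no Sall4 read, and the ranges overlapped. It was read in 69.8% of cells with and 16.1% of cells without Nanog reads in replicate 1 and in 79.2% with and 41.2% without in replicate 3. At the deposited depth the shares were 73.6% with and 22.6% without in replicate 1 and 81.1% with and 41.2% without in replicate 3. It was read in 0 of 63 Neuro2A cells and 0 of 53 MEFs. Its level was 2652 CPM with and 413 without Nanog reads in replicate 1 and 1014 with and 635 without in replicate 3 (log2 fold change of 1.69, edgeR adjusted p of 0.223, not past the threshold), with 38.0% of the reads of replicate 1 cells with Nanog reads in 1 cell. With the MEF share taken away, the log2 ratio of replicate 3 was 0.14, against 0.67 before. Taking it away also left fewer cells and drew their reads anew, and what moved the ratio was not tested.

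The 4 members that met the 2-fold rule were Zscan10, Lin28, Jarid2 and Rest, and none of them had an edgeR adjusted p under 0.05. Zscan10, a zinc finger factor of the ES cell network, was read in 11 of 53 cells with and 1 of 31 without Nanog reads in replicate 1 and in 26 of 53 with and 2 of 17 without in replicate 3. Its level was 144 CPM with and 3.23 without in replicate 1 and 98.2 CPM with and 11.8 without in replicate 3. Lin28, the RNA-binding protein that blocks let-7 processing, was read in 25 of 53 cells with and 2 of 31 without in replicate 1 and in 24 of 53 with and 2 of 17 without in replicate 3. Its level was 444 CPM with and 51.6 without in replicate 1 and 113 CPM with and 47.1 without in replicate 3. Both were thus read in 1 or 2 cells of each plate's class without Nanog reads. Jarid2, a partner of Polycomb repressive complex 2, had 136 CPM with and 61.3 without Nanog reads in replicate 1 and 425 with and 35.3 without in replicate 3. Rest, a repressor of neuronal genes, had 77.4 CPM with and 12.9 without in replicate 1 and 79.3 with and 11.8 without in replicate 3. In the pairs within 10% in genes read, Zscan10 alone of 12 core members tested met the rule, beside 5.19% of all genes. Its log2 ratios were 4.99 and 2.69, and Rest had ratios of opposite sign, -1.14 in replicate 1 and 2.81 in replicate 3.

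Pou5f1 and Sox2, the factors that work most closely with Nanog, did not meet the 2-fold rule and had no edgeR adjusted p under 0.05. Pou5f1 had 56.7 CPM with and 67.7 without Nanog reads in replicate 1 and 196 with and 129 without in replicate 3. Its share of cells was 24.5% with and 16.1% without Nanog reads in replicate 1 and 66.0% with and 23.5% without in replicate 3. Sox2 had a median of 6 reads of 10000 with and 1 without Nanog reads in replicate 1, up to 66 with and 85 without, and of 5 with and 1 without in replicate 3, up to 17 with and 20 without. Summed, Sox2 was 1086 CPM with and 1261 without Nanog reads in replicate 1 and 451 with and 500 without in replicate 3, although it was read in 75.5% of cells with and 51.6% without in replicate 1 and in 84.9% with and 52.9% without in replicate 3. The highest cell held 21.7% of the Sox2 reads of cells without Nanog reads in replicate 1 and 23.5% in replicate 3, while the median cell of that class had 1 read.

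**Figure D3:**
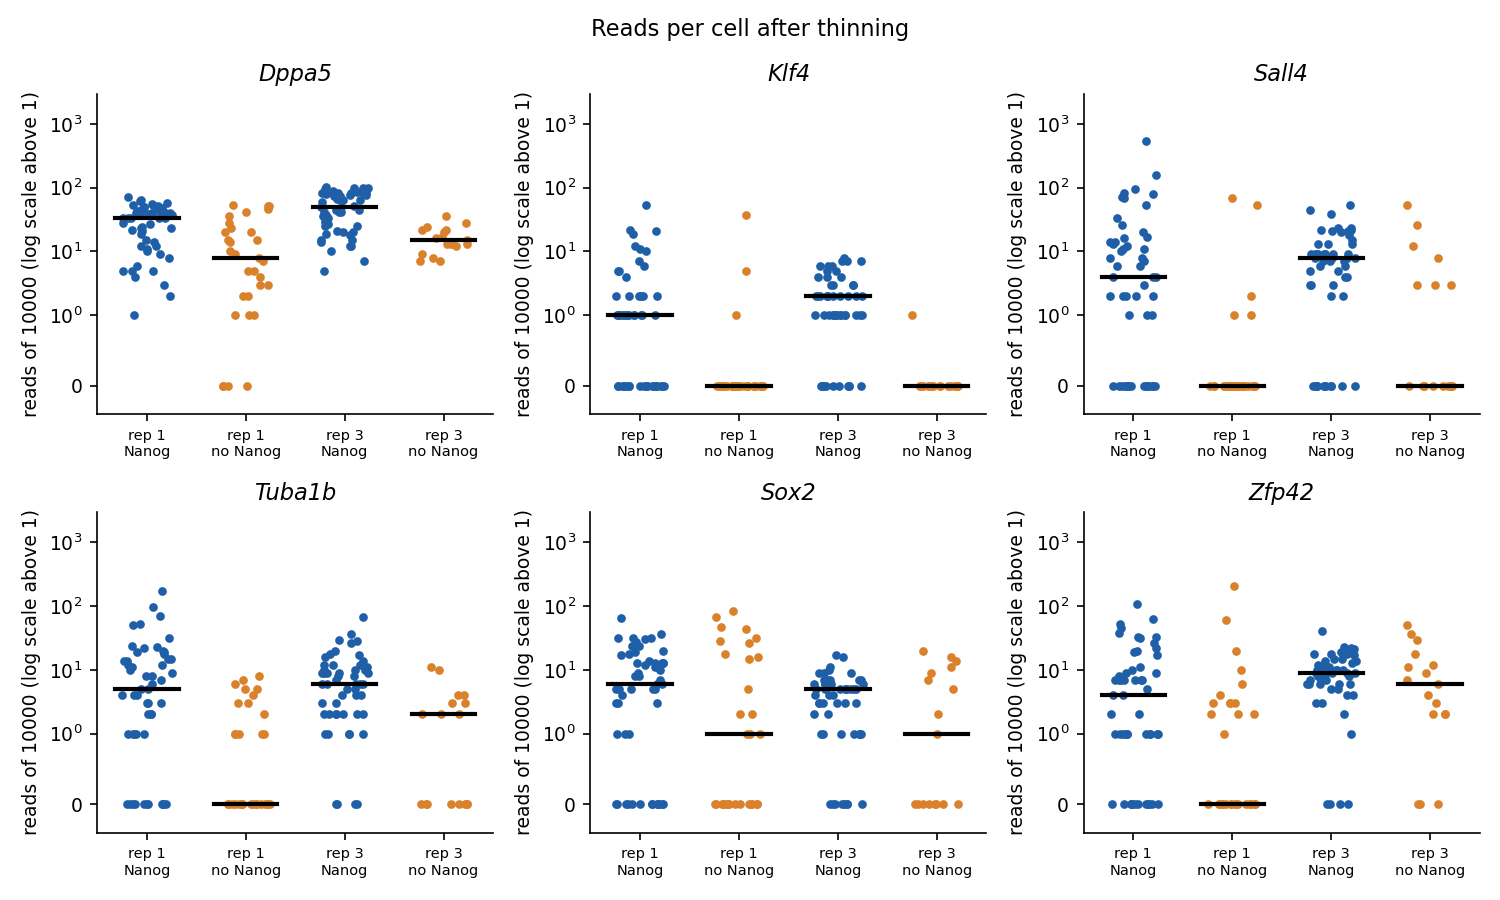
Reads of 10000 per cell for 6 genes, with cells with Nanog reads (blue) left of cells without (orange) in each plate, 1 point per cell and a line at the median; the axis is linear from 0 to 1 and logarithmic above. For Dppa5 the medians were 33 with and 8 without Nanog reads in replicate 1 and 49 with and 15 without in replicate 3, while for Sox2 and Zfp42 the highest cells without Nanog reads lay above those with in both plates.

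Of the naive pluripotency genes, 28 had a read and 25 were tested. The share of cells with a read was higher with Nanog reads in both plates for 23 and lower in both for 0. The level was higher in both for 13 and lower in both for 2, and 5 met the 2-fold rule upward and 0 downward. Over all genes tested the shares of these were 69.4% and 2.03%, 30.2% and 16.4%, and 9.76% and 0.761%. The median log2 ratio was 0.59 in replicate 1 and 0.06 in replicate 3, and 0 genes passed the edgeR test, with 2 higher and 0 lower at an unadjusted p under 0.05.

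Dppa5, an RNA-binding protein of early embryo and germ cells, was read in all 53 cells with and 27 of 31 without Nanog reads in replicate 1, and in every cell of replicate 3. It had a lowest, median and highest of 1, 33 and 71 reads of 10000 in cells with Nanog reads and of 0, 8 and 54 in cells without, in replicate 1. In replicate 3 it had 5, 49 and 103 reads with Nanog reads and 7, 15 and 36 without. The ranges overlapped in both plates. The highest cell held 4.40% of the reads with and 11.3% without Nanog reads in replicate 1, and 3.77% with and 12.8% without in replicate 3. Its level was 3050 CPM with and 1535 without Nanog reads in replicate 1 and 5161 with and 1659 without in replicate 3, log2 ratios of 0.99 and 1.63 (log2 fold change of 1.33, edgeR adjusted p of 0.103, not past the threshold). It was read in 0 of 63 Neuro2A cells and 0 of 53 MEFs. In the pairs within 10% in genes read the log2 ratios were 0.37 and 0.51, and with the MEF share taken away from replicate 3 that plate gave 1.48.

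Klf4, a Krüppel-like factor downstream of LIF and Stat3 signalling, had a lowest, median and highest of 0, 1 and 54 reads of 10000 with and 0, 0 and 37 without Nanog reads in replicate 1, and of 0, 2 and 8 with and 0, 0 and 1 without in replicate 3. It was read in 32 of 53 cells with and 3 of 31 without Nanog reads in replicate 1 and in 42 of 53 with and 1 of 17 without in replicate 3. At the deposited depth it was read in 83.0% of cells with and 16.1% without in replicate 1 and in 83.0% with and 23.5% without in replicate 3. Klf4 is a gene of other cells too, and was read in 7.94% of Neuro2A cells and 20.8% of MEFs at 10000 reads. Summed, it was 382 CPM with and 139 without Nanog reads in replicate 1, where 1 cell held 86.0% of the reads of the cells without, and 223 CPM with and 5.88 without in replicate 3. In the pairs within 10% in genes read its log2 ratios were 0.84 and 3.91.

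The other members that met the 2-fold rule were Fgf4, Cdh1, Dppa2 and Gdf3. In the pairs none of these 4, nor Klf4, met it. There 1 of 23 naive members tested did, Stat3, beside 5.19% of all genes. Without guanine-ending wells 2 of 24 did, Cdh1 and Klf4, beside 7.81% of all genes. Both counts lay near those shares. Fgf4, the growth factor that ES cells secrete, had 246 CPM with and 61.3 without Nanog reads in replicate 1 and 123 with and 52.9 without in replicate 3, with log2 ratios of 2.18 and 1.53 in the pairs, where its share of cells did not differ the same way in both plates. Cdh1, which encodes E-cadherin, had 348 CPM with and 74.2 without Nanog reads in replicate 1 and 117 with and 29.4 without in replicate 3, but 73.9% of its reads in the cells with Nanog reads of replicate 1 lay in 1 cell. Dppa2, a DNA-binding protein of pluripotent cells, had 96.3 CPM with and 32.3 without in replicate 1 and 66.1 CPM in replicate 3 against 0 reads in the 17 cells without Nanog reads. Gdf3, a TGF-beta family ligand, had 30.2 CPM with and 3.23 without Nanog reads in replicate 1 and 176 with and 82.4 without in replicate 3. With the MEF share taken away Gdf3 no longer met the rule, at a log2 ratio of 0.73 in replicate 3. Esrrb, a nuclear receptor, was lower in level with Nanog reads in both plates (185 CPM with and 287 without in replicate 1, 257 with and 365 without in replicate 3). It was read in more of those cells (43.4% with and 12.9% without in replicate 1, 67.9% with and 47.1% without in replicate 3). Zfp42, known as Rex1, had 1197 CPM with and 1052 without in replicate 1 and 1001 with and 1129 without in replicate 3. Stat3, the transcription factor of LIF signalling, had log2 ratios of 2.74 and 0.04 over all cells and of 5.77 and 1.50 in the pairs.

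**Figure D4:**
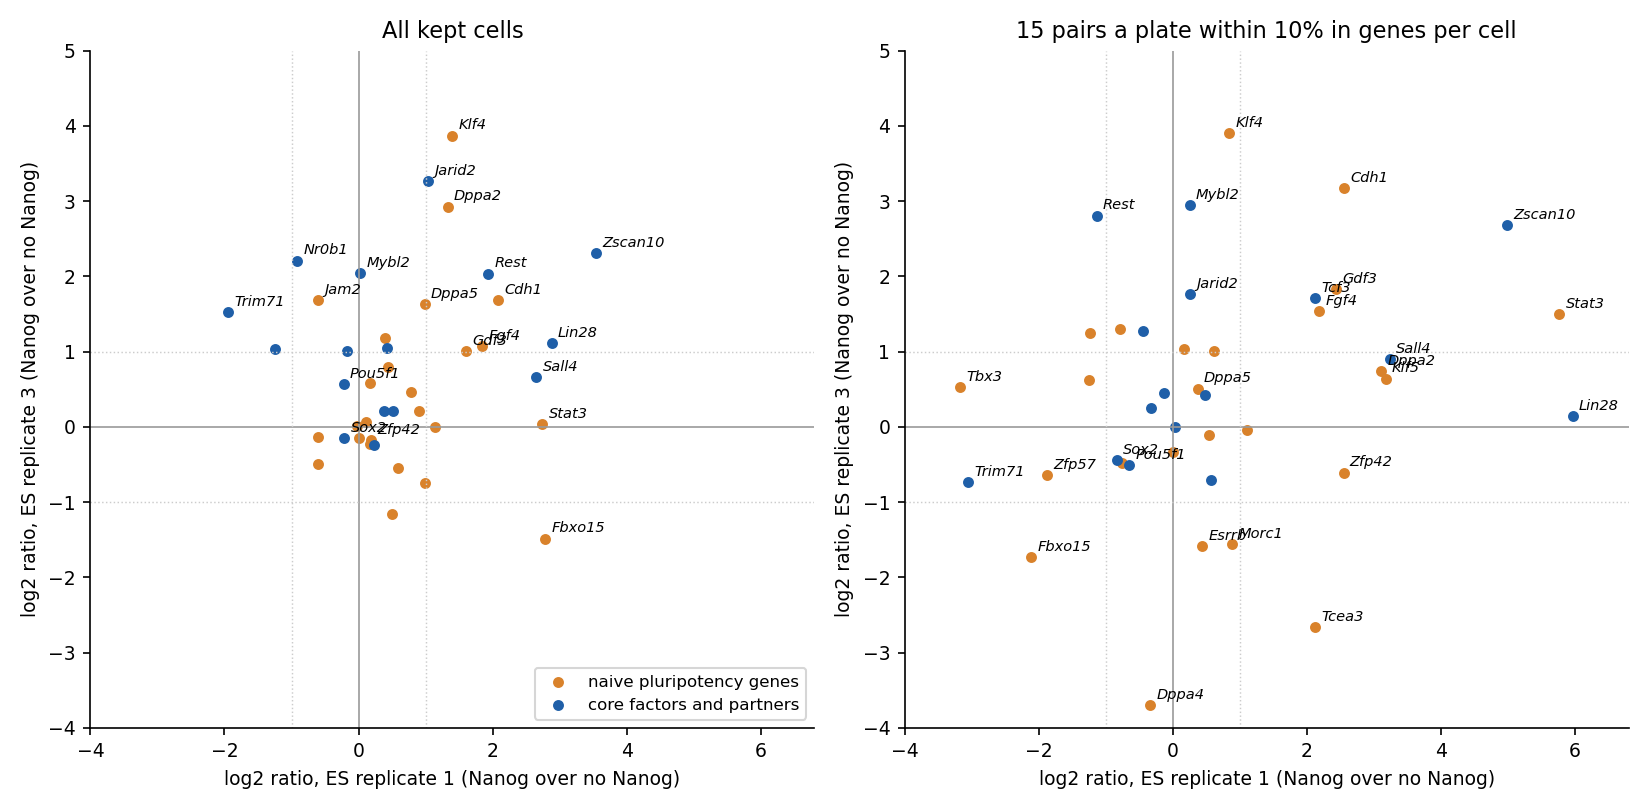
Log2 ratio of CPM + 10, cells with over cells without Nanog reads, in replicate 1 (horizontal) and replicate 3 (vertical), for tested core factors (blue) and naive pluripotency genes (orange), over all kept cells (left) and over the 15 pairs of each plate within 10% in genes read (right); dotted lines mark 2-fold. Over all cells Zscan10 lay at 3.54 and 2.31 and Sox2 at -0.21 and -0.15, and in the pairs Zscan10 lay at 4.99 and 2.69 and Sox2 at -0.83 and -0.45.

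In the pairs within 10% in genes read, fewer genes had shares apart in both plates, over all genes (17.0% higher and 13.7% lower) and in the pluripotency lists. Of 12 core members tested the share of cells with a read was higher in both plates for 5 and lower in both for 0, and of 23 naive members for 4 and 3. The median log2 ratios were 0.14 and 0.44 for the core list and 0.53 and 0.53 for the naive list, beside 0.00 and 0.00 over all genes tested. The summed ES markers were 11306 CPM with and 7407 without Nanog reads in replicate 1 and 6857 with and 5913 without in replicate 3, ratios of 1.53 and 1.16, against 1.49 and 1.68 over all cells. Without guanine-ending wells the share of cells was higher in both plates for 13 of 15 core and 16 of 24 naive members tested, beside 50.5% of all genes, and lower in both for 0 and 1. Of the core list Jarid2 and Zscan10 then met the 2-fold rule, beside 7.81% of all genes. Lin28 and Rest did not, and of the naive list Dppa2, Fgf4 and Gdf3 did not. Without these wells the log2 ratios in replicate 1 and then replicate 3 were 0.74 and 0.86 for Dppa5, 1.76 and 2.99 for Klf4, 2.90 and 0.74 for Sall4 and 4.24 and 2.30 for Zscan10. Tuba1b then had 1.78 and 1.32.

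Genes of other states and of signalling had list medians of opposite sign in the plates, or of 0 in one of them. Over all genes tested, 9.76% met the 2-fold rule upward and 0.761% downward. Of 6 primed and formative genes tested, among them Otx2, Dnmt3b and Dnmt3l, 0 met the 2-fold rule, with median log2 ratios of 0.17 in replicate 1 and -0.18 in replicate 3. Of 10 primitive endoderm genes tested 0 met it, with medians of 0.00 and -0.22. With the MEF share taken away 8 of them were tested, at a median of 0.16 in replicate 3. Of 13 targets of Nodal, FGF and BMP signalling 2 met it, with medians of -0.60 and 0.11. Smad7, an inhibitor of TGF-beta signalling that the pathway itself induces, was read in 21 of 53 cells with and 1 of 31 without Nanog reads in replicate 1 and in 25 of 53 with and 3 of 17 without in replicate 3. Its level was 315 CPM with and 3.23 without in replicate 1 and 121 CPM with and 29.4 without in replicate 3. Its log2 ratios in the pairs were 5.18 and 2.16, and with the MEF share taken away replicate 3 gave 0.77 over all cells. Id2, an inhibitor of DNA binding, was read with Nanog reads at 60.4 and 43.4 CPM and had 0 reads in the cells without in both plates. Lefty1, a secreted inhibitor of Nodal, had 28.3 CPM with and 255 without Nanog reads in replicate 1 and 15.1 with and 0 without in replicate 3. Lefty2, of the same kind, had 355 CPM with and 613 without in replicate 1 and 96.3 with and 200 without in replicate 3. No gene of these lists passed the edgeR test.

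Genes of the cell cycle and of energy metabolism are given beside all genes tested. Of these, 69.4% were read in more of the cells with Nanog reads in both plates, and 9.76% met the 2-fold rule upward. The mitosis counts lay near both shares. Of 26 S phase and DNA replication genes tested, the share of cells with a read was higher with Nanog reads in both plates for 25. Their median log2 ratio was 0.67 in replicate 1 and 0.38 in replicate 3, and 1 gene, Cdc6, which loads the replicative helicase, met the 2-fold rule. Of 32 mitosis genes tested, 25 had higher shares in both plates, and Bub1b, Cks2 and Tpx2 met it, with medians of 0.61 and -0.13. With the MEF share taken away Bub1b, Prc1 and Tpx2 met it and Cks2 did not. Of 38 genes of oxidative phosphorylation, 36 had higher shares in both plates and the medians were 0.51 and 0.35. Ndufa1, a subunit of complex I, met the rule at 253 CPM with and 80.6 without Nanog reads in replicate 1 and 534 with and 124 without in replicate 3. The 78 ribosomal protein genes had medians of 0.10 and 0.14 and 0 met the rule. In the pairs within 10% in genes read, the S phase medians were -0.46 and 0.10. The mitosis medians were -0.35 and -0.19. Of 27 mitosis genes tested there, Ccna2, Cdc20 and Kif23 were lower by the 2-fold rule and 0 higher. Of 20 S phase genes tested there, Mcm6 was higher and Mcm5 lower, and Cdc6 did not meet the rule. Of 37 oxidative phosphorylation genes, 0 were higher, Ndufa1 included, and Ndufa3 was lower. Over all genes the rule gave 4.37% lower and 5.19% higher. The oxidative phosphorylation medians were -0.42 and 0.07, and the ribosomal medians -0.02 and -0.02.

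Of the remaining lists, 20 glycolysis genes had medians of 0.40 and 0.15, 21 chromatin and Polycomb genes 0.14 and -0.26, 16 immediate early and stress genes 0.06 and 0.23, and 10 p53 and growth arrest genes 0.51 and 0.14, each in replicate 1 and then replicate 3. Of these 4 lists, 1 gene met the 2-fold rule, beside 9.76% of all genes tested upward and 0.761% downward. It was the glycolytic enzyme Pfkm, at 178 CPM in replicate 1 and 24.5 CPM in replicate 3 with Nanog reads and 0 reads without in both plates. With the MEF share taken away 0 of 19 glycolysis genes tested met the rule. Of 12 genes listed for the 2-cell-like state, 2 had a read and 1 was tested, Eif1a, with 236 CPM with and 1077 without Nanog reads in replicate 1 and 364 with and 641 without in replicate 3.

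Outside the lists, the genes with the largest differences shared by the plates, at 100 CPM or more in the higher class of both, were Blm, Tomm22, Pcdhg@, Rab14, Snx6, Tbl1xr1, Dazap2, Laptm5, Mlstd2 and Slc11a1 among those higher with Nanog reads. Tomm22, a receptor of the mitochondrial import pore, was read in 11 and 13 of 53 cells at 189 and 121 CPM and had 0 reads in the cells without Nanog reads of both plates. Rab14, a GTPase of endosomal traffic, was read in 19 of 53 cells with and 2 of 31 without Nanog reads in replicate 1 and in 21 of 53 with and 1 of 17 without in replicate 3. Its level was 351 CPM with and 9.68 without in replicate 1 and 130 CPM with and 5.88 without in replicate 3. Tbl1xr1, a subunit of a nuclear corepressor complex, had 676 CPM with and 6.45 without Nanog reads in replicate 1 and 104 with and 5.88 without in replicate 3 (edgeR adjusted p of 0.0599, not past the threshold), and 52.8% of its reads in the cells with Nanog reads of replicate 1 lay in 1 cell.

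Those lower with Nanog reads were Alg14, Ufd1l, Stard7, Ylpm1, Gemin7, Litaf, Cirh1a, Rraga, Tacc1 and Tmem165, and each was read in at most 7 of the cells without Nanog reads of either plate. Gemin7, a member of the SMN complex that assembles spliceosomal particles, had 7.55 CPM in cells with and 126 in cells without Nanog reads in replicate 1, read in 2 of 53 cells with and 2 of 31 without, and 45.3 CPM with and 306 without in replicate 3, read in 9 of 53 with and 4 of 17 without. Ufd1l, a cofactor of the p97 segregase, had 7.55 CPM with and 113 without Nanog reads in replicate 1 and 13.2 with and 318 without in replicate 3. In the cells without, 1 cell held 80.0% of the reads in replicate 1 and 79.6% in replicate 3. None of the 10 passed the edgeR test.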

How the data were processed

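Unnormalised read counts were deposited by the authors, with features in rows and well barcodes in columns, as their readme states. Reads were mapped with Bowtie according to the submitters' processing notes. No coordinates are printed, since the build is not given in the sources used here, nor are the Bowtie version, annotation and strand setting. The labels' protocols describe 1 sorted cell per well, so no doublet caller was run. They describe no molecular identifiers, so reads are not molecules. Repeat and mitochondrial rows entered neither library sizes nor tests.

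From the counts as deposited, wells of ES replicates 1 and 3 with at least 10000 gene reads (10338 to 594280 in replicate 1, 10073 to 106171 in replicate 3) were thinned to 10000 reads, Nanog was dropped, and reads were summed per plate and class. The sums were tested with edgeR 4.0.16 (quasi-likelihood, TMM, filterByExpr, plate as a block, Benjamini-Hochberg at 0.05); both classes share each plate, so plates pair the sums by design. The p-values measure the spread of the class difference between plates, with information on that spread shared over genes. The labels do not say whether the plates came from separate cultures, so that spread may be technical. Ratios use library-size CPM plus 10. Alternatives included DESeq2 1.42.0 and limma 3.58.1. The fit was also run on simulated sums with an equal dispersion for all genes. These did not model reads held by a single cell, so they do not test the calls above.

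Genes are named when they belong to a list and were tested, when they passed edgeR, or when they are among the 10 each way with the largest smaller log2 ratio at 100 CPM or more in the higher class of both plates, with shares of cells apart the same way, predicted genes aside. Members and lists were chosen with earlier results of these data known. ES replicate 2 is not used here, and 1 gene of the core list is not reported here. The subtraction of MEF reads, the closest pairs (within 10%), and pairs without guanine-ending wells were chosen after seeing the data.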

Additional observations from a re-analysis of the deposited data

How the results depend on the processing

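The number of genes past the edgeR test moved under most settings. The 3 higher became 11 at matched depth without thinning. They became 1 with 2 or more Nanog reads, with the highest cell of each plate left out per gene and with DESeq2. They became 0 at 3000 reads, with 10 or more Nanog reads, with the class from thinned reads, in nearest and closest pairs, without guanine-ending wells (paired or not), with library sizes as the scaling and with limma-voom. The 4 lower became 2 at matched depth, in nearest pairs, with another seed, at 20000 gene reads and without guanine-ending wells. They became 1 without thinning, with 2 or more Nanog reads, in pairs without guanine-ending wells and with DESeq2. They became 0 at 3000 reads, with 10 or more Nanog reads, with the class from thinned reads, with the highest cell left out, with library sizes and with limma-voom. With no replicate block, that is, without pairing the sums by plate, 0 genes were higher and 0 lower. With the highest cell left out, the log2 fold change of Cdc42bpa turned to 0.10. Of the alternatives each gene could be tested in, Cdc42bpa passed in 11 of 20, Pcdhg@ in 9 of 19, Sipa1 in 5 of 15, Blm in 4 of 19, Tuba1b and Lars2 in 4 of 20 each and Dnm1l in 3 of 20.

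The 577 genes higher by the 2-fold rule became 202 at 3000 reads. The counts of genes higher and lower, 577 and 45 over all cells, became 308 and 113 in nearest pairs, 170 and 143 in closest pairs, 306 and 98 in pairs without guanine-ending wells, 326 and 8 with the highest cell left out and 141 and 13 with a pseudocount of 50 CPM. The number lower also became 5 without thinning, 18 at matched depth and 99 without guanine-ending wells. The ratio of median genes read, 1.65 as the mean of both plates, was 2.14 without thinning, 1.23 in nearest pairs, 1.03 in closest pairs and 1.24 in pairs without guanine-ending wells. The median edgeR log2 fold change was 0.33 with TMM factors, 0.34 with library sizes and 0.21 with DESeq2's size factors, and fitted changes are relative to that shift. The mean of both plates' list medians was 0.67 for the core list, with a range of 0.30 to 1.04 when 1 plate was left out, and 0.33 for the naive list, with a range of 0.06 to 0.59. With 1 plate left out no residual degree of freedom remains, so edgeR gives no count. A gene with no read in a cell was not detected at 10000 reads, which does not show that it is absent.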
